A study of Saccharomyces cerevisiae with 6 samples.

Results

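The 10 genes described here encode the ammonium permeases Mep1, Mep2 and Mep3, the general amino acid permease Gap1, and the proteins that control them in nitrogen catabolite repression. They were chosen by name from the 7122 genes of the expression table, and all 10 were found. *MEP2* and *GAP1* were the reason for the choice, since both were much higher in the mutant samples, so their difference between strains is a description and is not tested. The other 8 genes were taken for their function, with earlier results of these data known. *Saccharomyces cerevisiae* RNA came from 3 WT and 3 *ths1-C268A* cultures, lettered A to C within each strain and called biological replicates by the study. Both strains derive from BY4741, a MATa laboratory strain in which *HIS3*, *LEU2*, *MET17* and *URA3* are deleted. *ths1-C268A* is a CRISPR-engineered strain whose threonyl-tRNA synthetase (ThrRS) has Ala in place of an editing-site Cys and no longer removes Ser from tRNA, and the mutant enzyme is also less stable at the higher temperature. Cells of both strains were grown to the log phase in rich glucose medium (YPD) at 30 °C and kept at 37 °C for 2 h before collection, so the effect of the mutation cannot be told apart here from its combination with heat.

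Yeast prefers nitrogen sources such as glutamine and ammonium and represses the genes for poorer sources while these last. Under repression, Ure2 holds the GATA factor Gln3 in the cytoplasm. When the preferred sources run short or the kinase complex TORC1 is inhibited, Gln3 and a second GATA activator, Gat1, enter the nucleus and bind GATAAG sites. Dal80 and Gzf3 are GATA factors that bind like sites and repress. The kinase Npr1, which TORC1 restrains, keeps Gap1 at the plasma membrane and the Mep proteins active.

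Expression was deposited as FPKM, fragments per kilobase of gene and scaled to sequencing depth, so levels of different genes can be compared per length. The genes of the table held between 16597937 and 19114041 fragments per sample, 81.3 to 81.7% of the FPKM denominator in WT and 86.6 to 89.4% in *ths1-C268A*. *DAL80* rested on 7 to 55 fragments per sample and the other 9 genes on 1164 to 13852. The sample labels give no cell type, and the stated BY4741 background was checked by mating-type genes and by the deleted genes. The 4 MATa markers summed to 1753 to 2315 FPKM in WT and 2608 to 3624 FPKM in *ths1-C268A*, and the 3 MATα markers to 35.96 to 44.2 and 30.1 to 37.1 FPKM. Of the 4 deleted genes, 3 were at 0 throughout, and *HIS3*, of which a part is left in BY4741, was 86.4 to 105.6 FPKM in WT and 196.9 to 270.6 FPKM in *ths1-C268A*. In bulk RNA, a higher level per cell and a larger share of expressing cells cannot be told apart.

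The GATA factors bind GATAAG, and this motif was therefore located upstream of these genes before the expression values are given. GATAAG was searched on both strands (CTTATC on the other strand) in the 300 bases before each start codon of the R64 genome. It was present upstream of 7 of the 10 genes, against 14.7% of 5977 promoters of protein-coding genes. At least 2 matches lay upstream of 5 of the 10 genes, against 1.64% of all promoters. The promoters of *MEP2* and *GAP1*, the genes with the largest differences, and of the 3 GATA factor genes with 3 or more matches are shown 5′ to 3′ on the strand of the gene, ending at the base before the start codon. Capitals mark GATAAG or CTTATC.
MEP2 (chrXIV:357153-357452, plus strand): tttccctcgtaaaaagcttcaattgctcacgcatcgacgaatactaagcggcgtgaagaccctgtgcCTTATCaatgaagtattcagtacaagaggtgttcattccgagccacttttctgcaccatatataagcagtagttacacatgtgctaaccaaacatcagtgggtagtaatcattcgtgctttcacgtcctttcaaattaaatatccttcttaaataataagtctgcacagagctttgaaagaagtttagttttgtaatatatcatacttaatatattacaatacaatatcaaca
GAP1 (chrXI:514763-515062, plus strand): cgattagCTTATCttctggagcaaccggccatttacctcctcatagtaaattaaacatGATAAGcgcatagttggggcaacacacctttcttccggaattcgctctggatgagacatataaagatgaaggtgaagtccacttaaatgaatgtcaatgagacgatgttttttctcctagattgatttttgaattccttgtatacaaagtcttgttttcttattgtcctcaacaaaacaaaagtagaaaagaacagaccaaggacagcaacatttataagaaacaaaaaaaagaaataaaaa
GAT1 (chrVI:95666-95965, plus strand): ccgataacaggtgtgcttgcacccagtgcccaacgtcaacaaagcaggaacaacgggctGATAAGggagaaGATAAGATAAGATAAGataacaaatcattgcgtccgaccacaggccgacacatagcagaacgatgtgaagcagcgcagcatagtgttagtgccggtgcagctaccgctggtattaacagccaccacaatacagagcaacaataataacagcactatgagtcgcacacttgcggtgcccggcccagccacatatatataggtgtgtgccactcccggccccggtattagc
DAL80 (chrXI:506598-506897, plus strand): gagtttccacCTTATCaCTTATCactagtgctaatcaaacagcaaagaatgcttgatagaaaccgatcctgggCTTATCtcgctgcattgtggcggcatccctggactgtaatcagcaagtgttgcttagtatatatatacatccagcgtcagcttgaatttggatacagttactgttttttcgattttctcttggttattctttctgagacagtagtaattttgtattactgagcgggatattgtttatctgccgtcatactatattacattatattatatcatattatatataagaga
GZF3 (chrX:211578-211877, minus strand): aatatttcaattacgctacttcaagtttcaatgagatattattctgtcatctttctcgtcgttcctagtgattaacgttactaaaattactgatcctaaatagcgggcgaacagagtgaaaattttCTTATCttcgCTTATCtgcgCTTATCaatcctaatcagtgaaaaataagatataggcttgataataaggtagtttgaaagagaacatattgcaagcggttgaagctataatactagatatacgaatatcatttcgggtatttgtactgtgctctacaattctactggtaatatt

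The 5 promoters differed in how the motif was arranged. *GAT1* had 4 matches on the strand of the gene, between positions -241 and -214 counted from the start codon, of which the last 3 follow each other and share a base. *DAL80* and *GZF3* each had 3 matches, all on the opposite strand. In *GZF3* they lay between positions -174 and -149, closer to the start codon than any match of the other 9 genes. *GAP1* had 1 match on each strand and *MEP2* had 1 on the opposite strand. *MEP3* had 2 and *NPR1* had 1, and *MEP1*, *GLN3* and *URE2* had none. Part of the *GAT1* window, 205 bases, lies within YFL021C-A, an ORF annotated on the opposite strand. Of the *DAL80* window, 234 bases lie within the ORF YKR032W and 19 within YKR033C on the opposite strand. Of the *MEP2* window, 34 bases lie within YNL143C, also on the opposite strand.

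In a window of 500 bases, tried after the data were seen, 9 of the 10 genes had a match against 22.8% of 5976 promoters. *MEP2* then had 7 matches, 5 of them on the strand of the gene, *MEP3* had 5, *GAP1* had 4, *MEP1* had 2 and *GLN3* had 1, while *URE2* had none. The letters TGACTCA, the usual site of the amino acid control activator Gcn4, were in none of the 10 promoters at either length, against 2.63% of promoters at 300 bases and 4.00% at 500 bases. A match is a string of letters and not a measured site, and its absence says nothing of a factor.

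**Figure D1:**
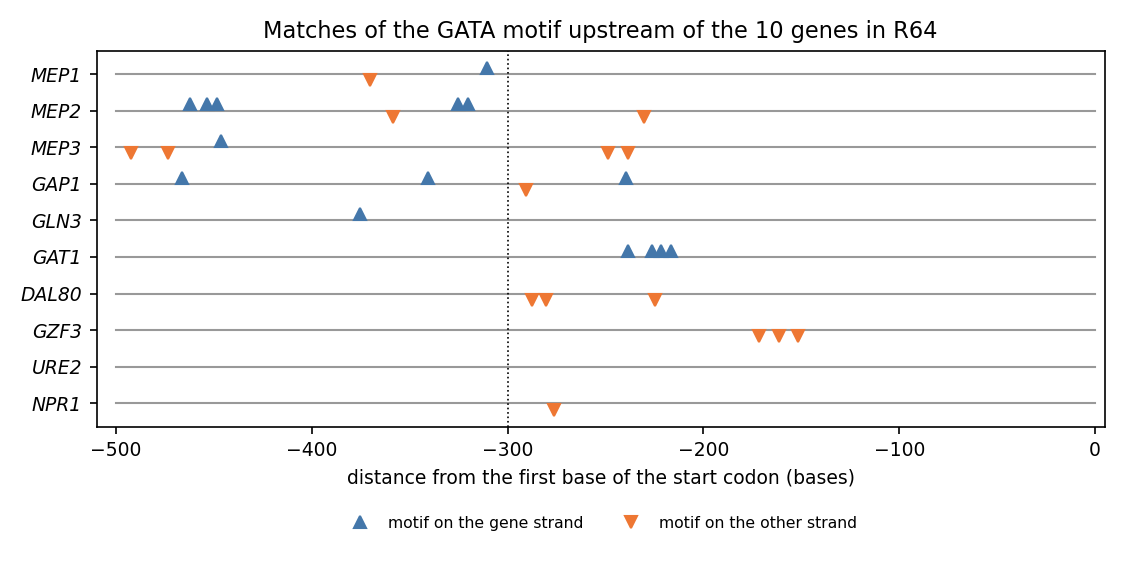
Positions of GATAAG within 500 bases upstream of the 10 genes, as the distance in bases from the start codon (x axis) with a row for each gene. Upward triangles are matches on the strand of the gene, downward triangles matches on the other strand, and the dotted line marks 300 bases. *MEP2* has 7 matches and *URE2* none.

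The mRNA of the ammonium permease *MEP2* and of the amino acid permease *GAP1* was higher in every *ths1-C268A* sample than in any WT sample. Among the regulators, the GATA activators *GAT1* and *GLN3* and the kinase gene *NPR1* rose. The repressor genes *DAL80* and *GZF3*, the inhibitor gene *URE2* and the other ammonium permeases *MEP1* and *MEP3* did not pass the test. Of the 8 genes taken for their function, 3 were higher and none was lower at an adjusted p under 0.05 in limma. The fit was on log2(FPKM + 1) over 6447 genes with Benjamini-Hochberg adjustment. Of all genes tested, 14.2% were higher and 12.1% lower, 26.4% in all. The lack of a lower call depended on the fit for *GZF3* and *MEP3*. The higher call of *NPR1* also depended on the fit and on which samples were kept, unlike those of *GAT1* and *GLN3*. The ranges of the strains did not overlap for 6 of these 8 genes, 5 higher and 1 lower, where 45.6% of the genes tested did not overlap, 24.5% higher and 21.1% lower.

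**Figure D2:**
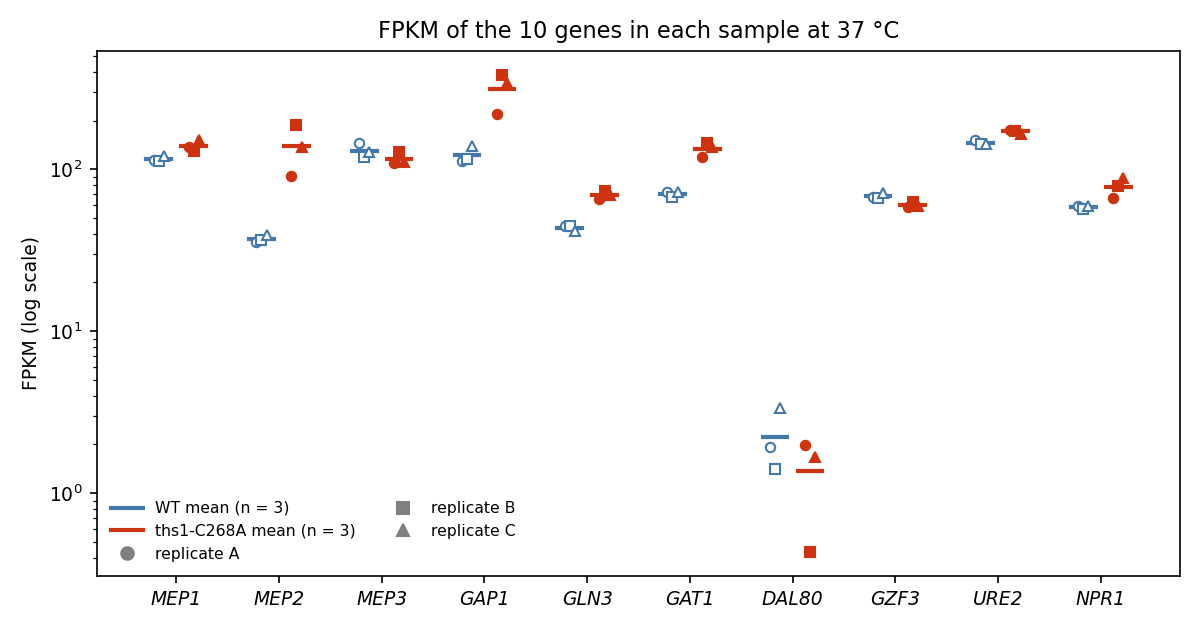
FPKM on a log axis for each of the 10 genes in the 3 WT (open blue) and 3 *ths1-C268A* (filled red) samples, with symbols for replicates A, B and C and bars for the strain means. *MEP2* and *GAP1* stand apart between strains and spread among the *ths1-C268A* replicates, and *DAL80* is near the bottom of the axis in all samples.

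*MEP2* (YNL142W, chromosome XIV, 357453 to 358952) encodes the ammonium permease of highest affinity, which also acts as a sensor for filamentous growth. It measured 35.7, 36.8 and 39.4 FPKM in WT cultures A to C, against 91.6, 187.5 and 138.1 FPKM in mutant cultures A to C. Replicate A of the mutant was the lowest of the 3 and was still more than every WT sample. The WT mean was 37.3 ± 1.93 FPKM (SD, n = 3) and the mutant mean 139.0 ± 48.0 FPKM (SD, n = 3), a ratio of 3.73 and a log2 fold change of 1.81 (standard error 0.22). The spread among samples was 5.18% of the mean in WT and 34.5% in *ths1-C268A*. The standard error, here and for the other genes, is pooled over strains and moderated toward the variance trend of all genes. It does not measure the wider spread of the mutant alone.

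*MEP1* (YGR121C, chromosome VII, 731449 to 732927) and *MEP3* (YPR138C, chromosome XVI, 810984 to 812453) encode permeases of lower affinity. *MEP1* was 114.7, 113.4 and 121.5 FPKM in WT and 136.5, 130.0 and 151.1 FPKM in *ths1-C268A*, so the strains did not overlap. Its log2 fold change of 0.25 (standard error 0.08) did not pass (adjusted p = 0.0581 from limma) and was 0.14 with protein-coding genes scaled to equal totals. *MEP3* was 144.6, 119.9 and 127.0 FPKM in WT and 110.0, 127.5 and 110.5 FPKM in *ths1-C268A*, with overlapping ranges. Its log2 fold change was -0.17 (standard error 0.10, adjusted p = 0.241 from limma), and with limma-voom on fragments it was -0.28 (adjusted p = 0.0428). The coding sequences of *MEP1* and *MEP3* were identical at 69.1% of aligned bases, with a longest shared run of 20 bases, and *MEP2* was identical to them at 49.9 and 50.8%. How fragments that map to more than 1 place were counted is not given in the sources used here.

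The 3 permease genes thus made up the family in different proportions in the strains. *MEP2* held 12.1, 13.6 and 13.7% of their summed FPKM in WT, against 27.1, 42.1 and 34.5% in *ths1-C268A*. The share of *MEP3* was 45.8 ± 2.75% (SD, n = 3) in WT against 29.6 ± 2.58% in the mutant, and that of *MEP1* was 41.0 ± 1.85% and 35.8 ± 5.85%. The sum itself was 284.3 ± 12.9 FPKM in WT and 394.2 ± 53.7 FPKM in the mutant. These shares rest on the values that chose *MEP2* and are given without a test.

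**Figure D3:**
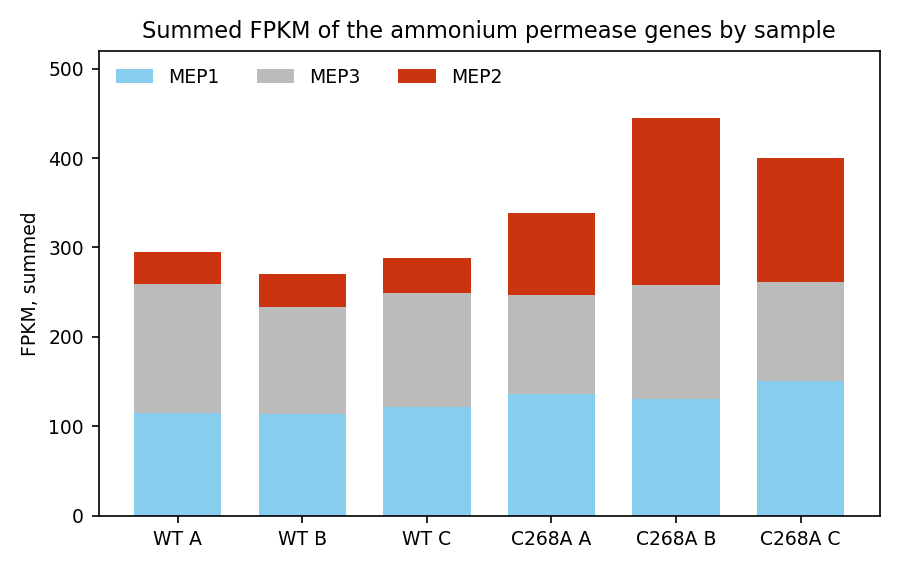
Summed FPKM of *MEP1* (light blue), *MEP3* (grey) and *MEP2* (red) as stacked bars, 1 bar for each of the 3 WT and 3 *ths1-C268A* samples. The *MEP1* part is 113.4 to 121.5 FPKM in WT and 130.0 to 151.1 FPKM in the mutant. The *MEP3* part is 119.9 to 144.6 FPKM in WT and 110.0 to 127.5 FPKM in the mutant. The *MEP2* part holds 12.1 to 13.7% of the WT bars and 27.1 to 42.1% of the mutant bars.

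*GAP1* (YKR039W, chromosome XI, 515063 to 516871) encodes the permease that takes up all the usual amino acids when nitrogen is poor. It measured 111.9, 115.2 and 139.1 FPKM in WT cultures A to C, against 219.6, 384.5 and 342.8 FPKM in mutant cultures A to C. As for *MEP2*, replicate A was the lowest of the mutant samples and lay above all WT samples. The WT mean was 122.1 ± 14.9 FPKM (SD, n = 3) and the mutant mean 315.6 ± 85.7 FPKM (SD, n = 3), a ratio of 2.59 and a log2 fold change of 1.33 (standard error 0.20). In WT, the samples of *GAP1* overlapped those of *MEP1* and *MEP3*, and in the mutant it was above every other gene of the 10.

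Both GATA activator genes rose. *GAT1* (YFL021W, chromosome VI, 95966 to 97498) was 72.0, 67.6 and 72.9 FPKM in WT and 119.5, 145.0 and 136.6 FPKM in *ths1-C268A*. The strains were well apart, and the log2 fold change was 0.90 (standard error 0.09, adjusted p = 6.96e-04 from limma). YFL021C-A, an ORF opposite to 650 bases of *GAT1*, was 10.01 to 11.4 FPKM in WT and 5.29 to 8.71 FPKM in the mutant, and without strand information its fragments and those of *GAT1* cannot be told apart. *GLN3* (YER040W, chromosome V, 229795 to 231987) was 44.7, 44.5 and 41.4 FPKM in WT and 65.2, 73.4 and 69.4 FPKM in *ths1-C268A*. It had little spread in either strain, and the log2 fold change was 0.66 (standard error 0.08, adjusted p = 0.00188 from limma). Both genes passed in every alternative fit and without any 1 sample. When a sample was left out, log2 fold changes were 0.84 to 0.98 for *GAT1* and 0.62 to 0.70 for *GLN3*. With protein-coding genes scaled to equal totals they were smaller, 0.79 for *GAT1* and 0.54 for *GLN3*, as with limma-voom, 0.80 and 0.55. With the length correction they were 0.85 and 0.53.

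The genes of the opposing factors did not pass. *DAL80* (YKR034W, chromosome XI, 506898 to 507707), the repressor of many allantoin and urea genes, was 1.93, 1.41 and 3.33 FPKM in WT and 1.99, 0.434 and 1.67 FPKM in *ths1-C268A*. It was low in all samples, and is itself known as a target of Gln3 and Gat1, and its ranges overlapped (log2 fold change -0.47, standard error 0.42, adjusted p = 0.426 from limma). At 7 to 55 fragments per sample, a moderate change of *DAL80* could not be detected. The ORF YKR033C on its opposite strand was listed at 0 in every sample. *GZF3* (YJL110C, chromosome X, 209922 to 211577), a repressor with a paralog in *DAL80*, was 67.1, 66.6 and 71.4 FPKM in WT and 58.7, 63.2 and 59.0 FPKM in *ths1-C268A*. It was the gene of the 10 whose mutant samples were all below WT, and its log2 fold change was -0.18 (standard error 0.08) at an adjusted p of 0.121 in limma. *GZF3* passed as lower once protein-coding genes were scaled to equal totals (-0.29, adjusted p = 0.0242), with limma-voom (-0.30, 0.0172) and with a correction for gene length (-0.25, 0.0400).

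*URE2* (YNL229C, chromosome XIV, 219137 to 220201), the cytoplasmic anchor of Gln3 and the protein of the [URE3] prion, was 152.4, 143.4 and 142.6 FPKM in WT and 175.3, 173.7 and 165.3 FPKM in *ths1-C268A*. Its samples did not overlap between strains and its spread was the smallest of the 10 in the mutant, 3.12% of the mean. The log2 fold change of 0.23 (standard error 0.08) was just short of the threshold (adjusted p = 0.0543 from limma) and passed without a filter on low genes (0.0461) or with the length correction (0.24, 0.0424), and was 0.11 (0.274) with protein-coding genes scaled to equal totals. *NPR1* (YNL183C, chromosome XIV, 293137 to 295509), the kinase of permease control, was 59.6, 57.0 and 59.3 FPKM in WT and 66.1, 79.2 and 88.6 FPKM in *ths1-C268A*. The mutant samples were higher than WT but spread more, 14.5% of the mean against 2.43%. Its log2 fold change was 0.40 (standard error 0.11, adjusted p = 0.0328 from limma), and this call was lost without WT replicate A (adjusted p = 0.0831), B (0.115) or C (0.0909) or *ths1-C268A* replicate B (0.0803) or C (0.0703), with protein-coding genes scaled to equal totals (0.28, 0.0770), with limma-voom (0.0522), without the variance trend (0.0565) and with the length correction (0.25, 0.0852).

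Ordered by level within WT, *URE2*, *MEP3*, *GAP1* and *MEP1* came first, at 146.1 to 116.5 FPKM, and neighbours in this order overlapped over their 3 samples. *GAT1* and *GZF3*, which overlapped each other, followed at 70.8 and 68.4 FPKM, then *NPR1* at 58.6, *GLN3* at 43.6, *MEP2* at 37.3 and *DAL80* at 2.23 FPKM, with gaps between neighbours. In *ths1-C268A*, *GAP1* was first, apart from *URE2* at 171.4 FPKM. *MEP1*, *MEP2*, *GAT1* and *MEP3*, at 139.2 to 116.0 FPKM, followed with overlapping neighbours, then *NPR1* and *GLN3*, also overlapping, *GZF3* and *DAL80*. In WT *GAT1* and *GZF3* were thus at like levels, and in the mutant *GAT1* was 133.7 and *GZF3* 60.3 FPKM. Of *GAT1*, 650 bases lie opposite another ORF, and of *DAL80*, 407 bases. How fragments there were counted is not known, so the levels of these genes relative to others are less certain.

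Replicates of *ths1-C268A* differed among themselves in the same way for several of these genes. Replicate A was the lowest and B the highest for 6 of the 10. These were *MEP2*, *GAP1*, *GAT1* and *GLN3*, and also *MEP3* and *GZF3*, whose fold changes were negative. The share of the FPKM denominator in genes had the same order, 86.6, 89.4 and 89.0% in A to C, and a link was not tested. This order of replicates was also found in 18.8% of the genes tested, and in 37.4% of those higher and 6.39% of those lower in the mutant. It is thus shared by many genes. Over the 6 samples, Pearson's r of log2(FPKM + 1) between *MEP2* and *GAP1* was 0.992, as a description, since the strain difference and the shared libraries both enter it. The genes closest to *MEP2* were *MET5* (r = 0.999), *ALO1* (0.998) and *SLA1* (0.996), and those closest to *GAP1* were *ALO1* (0.993), *SCH9* (0.993) and *ZRT3* (0.993). *MET5* encodes a subunit of sulfite reductase and rose by 0.83 on the log2 scale, and *ALO1* rose by 0.32.

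Other genes under nitrogen catabolite repression did not move as a block. A list of 22 was written from textbook knowledge with earlier results of these data known, so its count is a description. Of these, 20 could be tested, of which 8 were higher and none lower, and the other 12 missed the threshold. Among all genes tested, 14.2% were higher and 12.1% lower. The median log2 fold change was 0.20 for the list and -0.0025 for all genes tested. From 1 to 3 genes of the list were lower with a pseudocount of 5, the higher filter, the replicate block, the length correction, limma-voom or another scaling. The largest difference was that of *PUT1*, the proline oxidase gene, at 71.6, 58.0 and 69.3 FPKM in WT and 167.0, 140.2 and 162.7 FPKM in *ths1-C268A* (log2 fold change 1.23, standard error 0.11, adjusted p = 3.61e-04 from limma). *GLN1*, glutamine synthetase, which makes glutamine from ammonium, was 501.5 ± 11.8 FPKM in WT and 1003 ± 154.8 FPKM in the mutant (SD, n = 3 each). *DAL3*, of allantoin breakdown, rose by 0.99 from 27.3 FPKM, and urea amidolyase *DUR1,2* rose by 0.60, the vacuolar carboxypeptidase gene *CPS1* by 0.51, the urea transporter gene *DUR3* by 0.47, the arginine permease gene *CAN1* by 0.42 and *PUT2*, the next enzyme after Put1, by 0.29. The call of *PUT2* was lost with protein-coding genes scaled to equal totals (0.17, adjusted p = 0.119 from limma) and with the length correction (0.21, 0.0769). It was also lost with limma-voom (0.18, 0.119), with the replicate block (0.0690) and with any WT replicate or *ths1-C268A* replicate B left out (0.0598 to 0.133). *DUR1,2* and *DUR3* lost theirs with any WT replicate left out (0.0514 to 0.0914), and *CPS1* with WT replicate B or C left out (0.0760 and 0.0707). *DUR3* also lost its call with *ths1-C268A* replicate B left out (0.0547), equal totals (0.0528) or the length correction with the replicate block (0.0715). The list had 5 higher genes with WT replicate A left out and 4 with B or C left out, and it had 1 lower gene with WT replicate A left out and 3 with *ths1-C268A* replicate A left out.

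The genes of the list that did not pass included strong ones. The proline permease gene *PUT4* was 202.4, 280.2 and 359.5 FPKM in WT and 189.9, 138.3 and 196.2 FPKM in *ths1-C268A*, and its log2 fold change of -0.66 (standard error 0.21) missed the threshold by little (adjusted p = 0.05004 from limma). WT replicate C was highest and the mutant samples were all below WT. The log2 fold changes of *GDH2* (-0.04), an enzyme of glutamate breakdown, and *UGA1* (0.23), of GABA breakdown, also did not pass. The allantoate permease gene *DAL5*, named after its value was seen, was 32.9 ± 0.910 FPKM in WT and 26.7 ± 2.41 FPKM in the mutant (log2 fold change -0.30, adjusted p = 0.0548 from limma). *ASP3*, the asparaginase gene with near-identical copies that can share fragments, had 2 copies listed near 0 and 2 with log2 fold changes of -0.24 and -0.29 that did not pass.

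**Figure D4:**
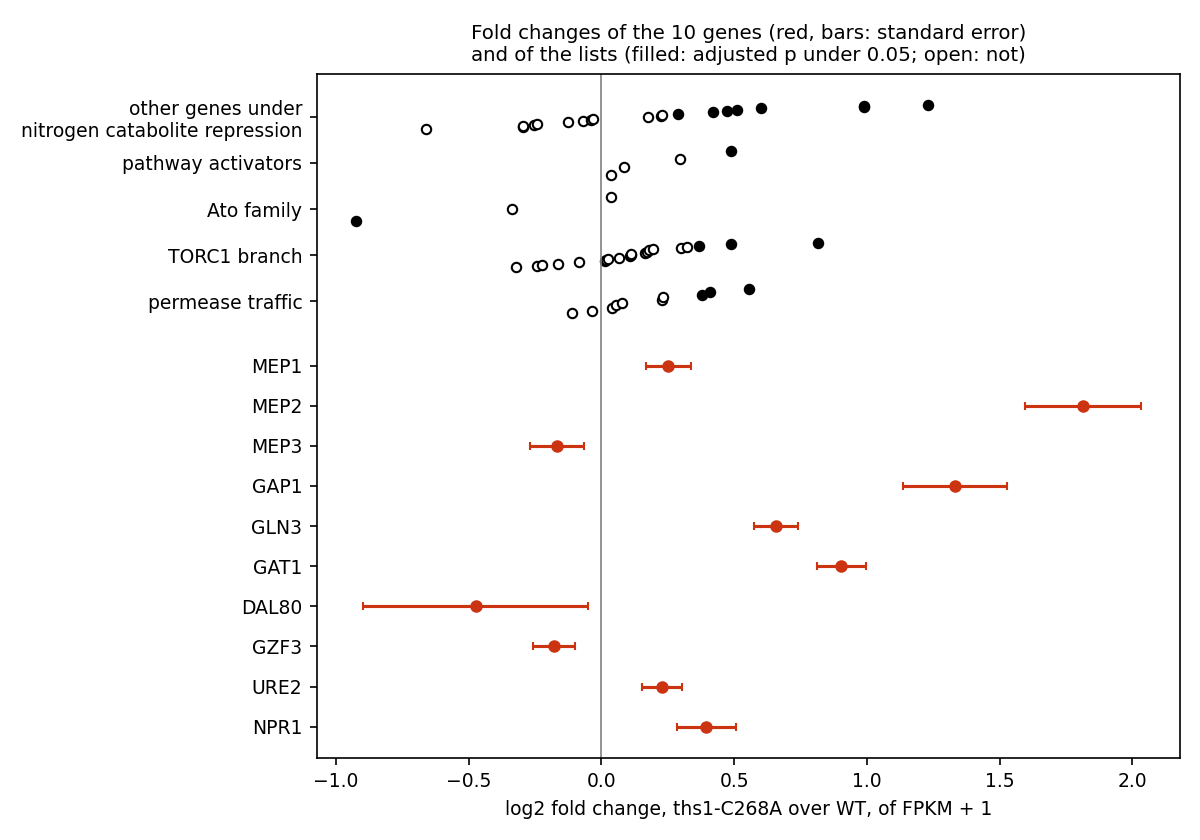
Log2 fold change of FPKM + 1, *ths1-C268A* over WT (x axis), for the 10 genes (red, bars are standard errors) and for each tested gene of 5 lists (black, filled where adjusted p was under 0.05 in limma, open otherwise). *MEP2* at 1.81 and *GAP1* at 1.33 lie to the right of every listed gene, but were chosen because they were much higher. The other genes under nitrogen catabolite repression spread from -0.66 to 1.23. The standard errors are the moderated ones of the fit, pooled over strains.

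Genes that stand upstream of the GATA factors or act on the permeases were described by further lists. Of 21 genes of TORC1 and the phosphatases and GTPases around it, 3 were higher and none was lower (median log2 fold change 0.11), a share of higher genes like the 14.2% of all genes tested. They were *SAP185* (0.82) and *SAP190* (0.37), whose products bind the phosphatase Sit4, and *SCH9* (0.49), a kinase that TORC1 phosphorylates. The call of *SAP190* was lost with the length correction (0.18, adjusted p = 0.105 from limma), with equal totals (0.25, 0.0584) and with any sample other than *ths1-C268A* replicate A left out (0.0537 to 0.0801). *SIT4* itself (-0.22), *PPH21* (0.01) and *SLM4* (0.17) did not pass. Of 10 genes of permease sorting and ubiquitylation, 3 were higher and none was lower (median 0.15), where 14.2% of all genes tested were higher and 12.1% lower. *BUL1* (0.55), *ALY2* (0.41) and *ALY1* (0.38) encode adaptors of the ubiquitin ligase Rsp5, and *BUL1* acts in the removal of Gap1 from the membrane. *RSP5* (0.23), the ER chaperone gene *SHR3* (-0.11) and *DOA4* (-0.03) did not pass. *ALY1* and *ALY2* lost their calls with the length correction (0.21 and 0.22, adjusted p = 0.107 and 0.0741 from limma), with equal totals (0.26 and 0.29, 0.0712 and 0.0532) and with any sample other than *ths1-C268A* replicate A left out (0.0592 to 0.0960), and *BUL1* passed in all of these.

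Of 4 activators of single nitrogen pathways, *UGA3*, of GABA use, rose by 0.49, and *DAL81* (0.30), *PUT3* (0.09) and *DAL82* (0.03) did not pass. Of the 3 genes of the Ato family, proposed to export ammonia or carry acetate, *ADY2* was among the abundant mRNAs, at 1719, 1667 and 2351 FPKM in WT and 1281, 606.0 and 1268 FPKM in *ths1-C268A*. *ADY2* fell by 0.92 on the log2 scale (standard error 0.29, adjusted p = 0.0466 from limma), a call lost without WT replicate A, B or C or *ths1-C268A* replicate B (adjusted p = 0.0670 to 0.145). *ATO2* (0.04) and *ATO3* (-0.34) did not pass.

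The GATAAG motif was also set against the difference between strains over all promoters, with the 10 genes left out. Genes with no match were higher in *ths1-C268A* in 15.0% of 4975 cases, those with 1 match in 16.8% of 758, those with 2 matches in 19.5% of 82 and those with 3 or more in 5 of 10. Lower genes made up 12.1, 10.6 and 9.76% of the first 3 classes, and none of the 10. The median log2 fold changes were 0.01, 0.03, 0.10 and 0.34. The 5 higher genes with 3 or more matches were *DAL3*, *GUD1* (0.58), which encodes guanine deaminase, *ATG32* (0.56), the mitophagy receptor gene, *SPO14* (0.52), which encodes a phospholipase D, and *CAN1*, of which *GUD1*, *ATG32* and *SPO14* are named after their values were seen. *DAL7* (-0.03) and *UBI4* (0.18), also named after their values were seen, had 3 and 4 matches and did not pass. The same holds for *AIM6* (0.26), *GDH3* (-0.07) and *MOH1* (0.21), with 3 matches each. *DAL3*, *CAN1* and *DAL7* were already counted in the list of genes under nitrogen catabolite repression. The last class is small, so its share is given as a count and no order of classes is tested. Matches were counted on both strands, so neighbouring genes can be scored for the same matches, and these were not removed. The genes of a class may thus not be separate promoters, and matches of the 10 members may remain through their neighbours. *GUD1* (YDL238C) and *AIM6* (YDL237W) had 3 matches each, as had *SPO14* (YKR031C) and the member *DAL80* (YKR034W). Whether these are the same matches was not tested.

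**Figure D5:**
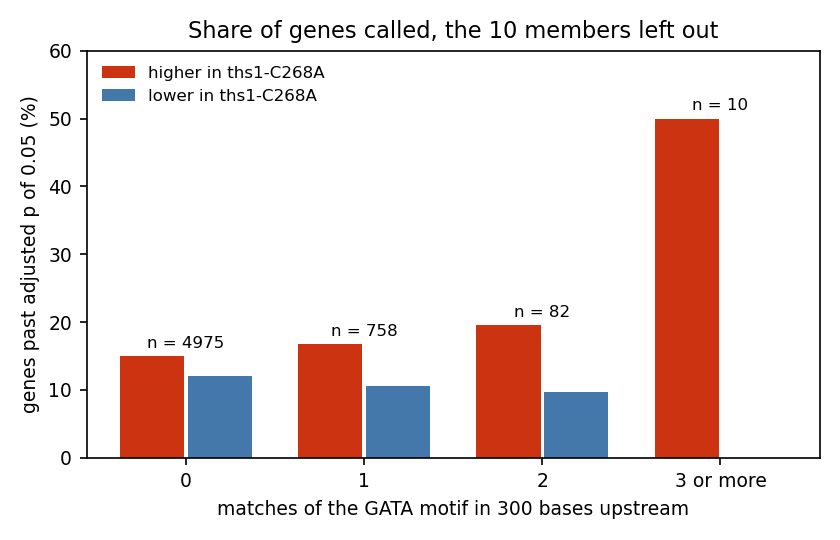
Share of genes past an adjusted p of 0.05 in limma (y axis, %), higher (red) or lower (blue) in *ths1-C268A*, by the number of GATAAG matches in the 300 bases upstream (x axis), without the 10 genes. The share of higher genes is 15.0, 16.8 and 19.5% in the first 3 classes and 5 of 10 genes in the last.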

How the data were processed

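Total RNA of 3 WT and 3 *ths1-C268A* cultures was sequenced on the Illumina platform. The authors deposited FPKM values for 7122 genes, and HISAT2 is the only tool named in the submitters' processing notes. No source used here gives the counting tool, annotation, strandedness or poly(A) selection. Of 6045 genes with a RefSeq locus tag, 6033 had the coordinates of R64, from which promoters were read. Fragments recovered from FPKM times length were whole, within 0.01, for 100% of values. Their number limits the precision of low genes.

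Strains were compared with limma 3.58.1 in R 4.3.3 (empirical Bayes, variance trend, two-sided) on log2(FPKM + 1). Genes averaging 1 FPKM or more over the 6 samples were kept (6447), strain was the sole term, and calls had a Benjamini-Hochberg adjusted p under 0.05. Fold changes on this scale understate low genes. The scripts were tested on simulated data with the same spread setting for both strains. That test does not bear on calls of genes whose spread differed between strains. Members and lists were chosen with earlier results of these data known. The genes named were the 10 members, every gene of 5 lists that passed, up to 3 others of each list with the highest mean FPKM, and the 3 genes most like *MEP2* and *GAP1* by Pearson's r. The fit was repeated with other pseudocounts (0.1, 5), without the filter or at 10 FPKM, with median-ratio scaling or protein-coding genes scaled to equal totals, without the trend, by limma-voom on fragments, with a replicate block, with a loess correction for length (span 0.5), and with each sample left out.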

Additional observations from a re-analysis of the deposited data

How the results depend on the processing

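None of the 10 genes changed direction under any alternative run. Over the fits without 1 sample, the log2 fold change was 1.57 to 2.08 for *MEP2* and 1.17 to 1.57 for *GAP1*. With protein-coding genes scaled to equal totals, the median over all genes was -0.116 on the log2 scale, *MEP2* was 1.70 and *GAP1* 1.21, and calls were 524 higher and 1285 lower in place of 916 and 783. With limma-voom they were 613 higher and 1387 lower. Without 1 sample they were 356 to 1088 higher and 290 to 1057 lower. The share of higher calls thus depends on scaling. Sizes of differences that kept their calls also moved with the length correction. The log2 fold change was smaller for *DUR1,2* (0.38), *SAP185* (0.62), *BUL1* (0.37) and *SCH9* (0.34). It was larger for *DAL3* (1.12) and 0.99 for *GLN1*. Of the 8 members taken for their function, 1 was lower with the equal total, 2 with limma-voom and 1 with the length correction. Without 1 sample 2 to 3 of them were higher. Of the genes under nitrogen catabolite repression, 1 was lower with a pseudocount of 5, with median-ratio scaling or with the replicate block, 2 with a mean of at least 10 FPKM or with the length correction, also with the replicate block, and 3 with the equal total or limma-voom. Without 1 sample, 4 to 8 of them were higher and 0 to 3 lower. Of the Ato family, 0 were lower with no filter, without the trend or with the length correction and 2 with the equal total or limma-voom, and 0 to 1 were lower and 0 to 1 higher without 1 sample. Of the TORC1 list, 2 were lower with the equal total and with limma-voom, and without 1 sample 2 to 5 were higher and 0 to 1 lower. Of the permease traffic list, 1 was higher with the equal total and with the length correction, with or without the block, and 1 to 4 without 1 sample. Of the pathway activators 1 to 2 were higher without 1 sample. The causes were not tested beyond what each setting changes. *MEP2* held 12.9 to 13.7% of the summed *MEP* FPKM in WT and 30.8 to 38.3% in *ths1-C268A* without 1 sample.

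Samples with the same letter did not deviate together (r = -0.23, 0.06 and -0.01 for A, B and C across genes), so the letters were not taken to pair the cultures. With a replicate block, 683 genes were higher and 593 lower, and *NPR1*, at an unchanged fold change, had adjusted p = 0.0506 from limma.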
